A study of Mus musculus with 12 samples.

Results

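RNA sequencing of mouse skin was examined for 38 genes of adipocytes and fat metabolism, taken by gene symbol from a deposited table of 25070 genes in 12 libraries. The list covers hormones secreted by fat, lipid droplet proteins, lipases, transporters, enzymes of triglyceride and fatty acid synthesis, transcription factors and receptors. All 38 symbols were in the table, and each had at least 1 CPM, a gene's reads scaled to 1 M (mega) reads of the library, in all 12 libraries. The libraries were total RNA of skin biopsies. By the immunization label they were skin of a 1st exposure to ticks (first exposure, n = 3), of repeated infestation, named ticks 2x (3 libraries) and ticks 3x (3 libraries), of an animal labelled saliva immune (n = 1), and of naïve mice labelled as not bitten (n = 2). The 10 bitten samples were taken 4 days after tick attachment, and the naïve ones carry the same 4 day label. Nothing in the sources used here gives the animals' strain, sex or age, or the species of tick. The labels do not say whether libraries of a group came from separate animals, so p-values measure the spread between these samples, which may be technical. The sample titles carry a series number. It is 4 for first exposure and saliva immune, and 6 for ticks 2x, ticks 3x and naïve, so a difference between first exposure and ticks 2x, ticks 3x or naïve skin cannot be told apart from a difference between the title series.

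White adipocytes store triglyceride in 1 large lipid droplet. They take up fatty acids that lipoprotein lipase releases from lipoproteins, make further fatty acids from glucose through citrate and acetyl-CoA, and join both to glycerol 3-phosphate. Hormones that raise cyclic AMP switch on lipolysis, in which lipases break the stored triglyceride down, and insulin opposes this. Mouse skin holds a layer of such cells in the lower dermis and more below it, and sebaceous glands in the same skin also make lipid. In bulk RNA, fewer adipocytes in a biopsy and less RNA of these genes per cell cannot be told apart.

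Adipocyte markers were present in every library. Adipoq, which encodes the adipocyte hormone adiponectin, ranged from 72.3 to 552 CPM. Ucp1, the defining gene of brown adipocytes, stayed at or below 0.243 CPM. That is near the level of 3 reads, which lay between 0.101 and 0.24 CPM. Other genes of a list of 8 brown adipocyte genes were higher. Dio2 ranged from 6.13 to 84.6 CPM, Cox8b from 3.54 to 39.97, Cox7a1 from 1.52 to 25.5 and Zic1 from 2.85 to 13.8. Prdm16 stayed at or below 0.639 CPM, Otop1 at or below 1.30 and Ppargc1a at or below 3.64. The cells that these transcripts came from were not tested. Estimated depth was 12.5 to 29.8 M reads per library. The biopsies differed in other tissue. The mean log2(CPM + 1) of 15 skeletal muscle genes was 9.43, 9.66 and 9.95 at first exposure, 6.84, 7.08 and 10.35 in ticks 2x, 7.91, 8.47 and 10.93 in ticks 3x, 9.56 in saliva immune skin and 10.47 and 9.66 in naïve skin. That of 17 hair follicle genes was 9.83, 10.11 and 1.53 at first exposure, 9.67, 2.76 and 0.50 in ticks 2x, 5.49, 7.31 and 0.56 in ticks 3x, 0.45 in saliva immune skin and 8.16 and 0.62 in naïve skin. Milk protein transcripts stood out in naïve library 1, with 43.5 CPM of Csn1s1 and 46.3 CPM of Csn2, against at most 2.46 and 2.32 CPM in the other libraries.

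Promoter sequences of 4 members are given, taken from groups of genes whose levels are described below. Fasn and Thrsp belong to fatty acid synthesis, and Adipoq and Lep encode adipocyte hormones. Each sequence is the 250 bases before an annotated start in RefSeq's GRCm38.p6, read 5′ to 3′ on the gene's strand. Capitals mark the letters CCAAT on either strand, so ATTGG as well, in the first 3 sequences, and the C/EBP palindrome TTGCGCAA in Lep. The windows are chr11:120824548-120824797 on the minus strand for Fasn, chr7:97417551-97417800 on the minus strand for Thrsp, chr16:23146286-23146535 on the plus strand for Adipoq and chr6:29059971-29060220 on the plus strand for Lep. Those of Thrsp, Adipoq and Lep lie directly upstream of the annotated gene, and that of Fasn lies inside the annotated gene span, before one of its transcript starts.
Fasn: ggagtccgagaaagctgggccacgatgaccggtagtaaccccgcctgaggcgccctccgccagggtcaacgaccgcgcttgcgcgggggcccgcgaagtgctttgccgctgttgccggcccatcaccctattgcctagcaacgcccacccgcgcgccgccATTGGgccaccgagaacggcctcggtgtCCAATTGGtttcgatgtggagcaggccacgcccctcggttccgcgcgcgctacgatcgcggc
Thrsp: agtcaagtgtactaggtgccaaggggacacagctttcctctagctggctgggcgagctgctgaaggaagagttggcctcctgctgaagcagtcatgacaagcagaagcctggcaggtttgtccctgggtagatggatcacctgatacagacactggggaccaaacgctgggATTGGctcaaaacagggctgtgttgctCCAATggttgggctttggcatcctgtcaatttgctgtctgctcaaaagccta
Adipoq: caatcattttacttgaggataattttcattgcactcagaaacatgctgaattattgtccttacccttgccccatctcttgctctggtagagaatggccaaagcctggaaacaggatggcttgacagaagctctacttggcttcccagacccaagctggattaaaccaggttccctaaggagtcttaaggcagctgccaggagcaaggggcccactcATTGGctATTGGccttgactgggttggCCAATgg
Lep: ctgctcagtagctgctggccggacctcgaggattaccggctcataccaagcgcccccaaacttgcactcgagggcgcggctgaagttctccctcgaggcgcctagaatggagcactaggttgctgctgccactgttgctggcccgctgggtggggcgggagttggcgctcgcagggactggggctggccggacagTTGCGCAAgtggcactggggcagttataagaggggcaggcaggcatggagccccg
Fasn held 3 CCAAT matches, with the farthest 90 bases before the start and 2 of them overlapping in CCAATTGG. Thrsp held 2, at 79 and 52 bases before the start, and Adipoq held 3. RefSeq windows were at hand for 24 of the 38 members. Some members had more than 1 window, 32 in all. CCAAT was found in 11 of these 32 windows (10 genes), against 33.8% of all 32851 promoter windows of this length in the table. TTGCGCAA was found in 1 of the 32, that of Lep, and in 0.164% of all windows. The E-box CACGTG was in 2 of 32, those of Lipe and Mlxipl, and in 6.02% of all windows. The looser form TTGCNNAA, which also counts TTGCGCAA, was in 4 of 32 and in 9.56% of windows, the sterol element TCACNCCAC in 2 of 32 and in 1.05%, and the GC box GGGCGG in 12 of 32 and in 32.7%. The DR1 direct repeat, a form of the site of PPARG with RXR, was in none of the 32 and in 0.0335% of windows. All motifs were searched on both strands, and a match describes letters, not a site in use.

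At first exposure the fat genes were low. All 38 had a negative log2 fold change against naïve skin, between -2.63 for Thrsp, a regulator of fat synthesis, and -0.30 for Cidea, a lipid droplet protein. The median was -1.35, while the median of all 17064 genes tested was 0.08 and 42.1% of them were below 0. For 34 members all 3 first exposure libraries were below both naïve libraries, against 14% of all genes tested, and none lay above both, where 21% of all genes did. The other 4 were Acsl1, Cebpa, Cidea and Lgals12. With limma on log2(CPM + 1) none of the 38 passed a Benjamini-Hochberg adjusted p of 0.05 over all genes, a threshold that 0.0117% of all genes passed. The smallest limma adjusted p of a member was 0.0566, for Acly, and 33 members had an unadjusted limma p below 0.05, all with lower values at first exposure, against 6.32% of all genes in that direction and 10.1% in the other. Without naïve library 2 this count was 20. Without first exposure library 3 limma called 10 members, Acly, Cfd and Dgat2 among them. Without any other single first exposure, ticks 2x or ticks 3x library it called 0. Among all genes tested, filtered anew for each omission, no omission of a single library gave more than 600 calls.

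In skin bitten repeatedly, most of the list lay nearer to naïve skin, while the fatty acid synthesis genes lay below it, apart from Elovl6 in ticks 3x. Against naïve skin, the median of the 38 log2 fold changes was -0.59 in ticks 2x, with 33 below 0, and -0.20 in ticks 3x, with 26 below 0. The medians of all genes were 0.01 and 0.02. In ticks 2x, 15 members lay below both naïve libraries without overlap, against 12.8% of all genes, and in ticks 3x 8 did, against 9.58%. Of the members, Pck1 alone lay above both naïve libraries in ticks 3x, where 15.5% of all genes did, and none did in ticks 2x. Limma called no member in either comparison (0.0352% of all genes in ticks 2x and 0.00586% in ticks 3x), and each had 8 members with an unadjusted limma p below 0.05. In ticks 2x all 8 were lower, where 5.23% of all genes were lower and 5.71% higher. In ticks 3x 7 were lower and 1 higher, where 2.12% of all genes were lower and 4.83% higher. The ticks 2x count was 4 without naïve library 2 and 5 without ticks 2x library 2, and the ticks 3x count was 12 without ticks 3x library 3. These comparisons share the naïve libraries, both of title series 6, with one another and with first exposure.

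The 9 bitten libraries together, 3 from each tick group, gave a median of -0.75 against naïve skin, with 36 of 38 members below 0 and a median of 0.06 over all genes. For 7 members, Acaca, Acly, Agpat2, Cfd, Fasn, Me1 and Thrsp, all 9 bitten libraries lay below both naïve libraries, against 3.31% of all genes, and no member had all 9 above both, where 4.02% of all genes did. None was called by limma (0.041% of all genes were), and 20 had an unadjusted limma p below 0.05, all lower, against 4.74% of all genes in that direction and 6.42% in the other. Without naïve library 2 there were 5.

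**Figure D1:**
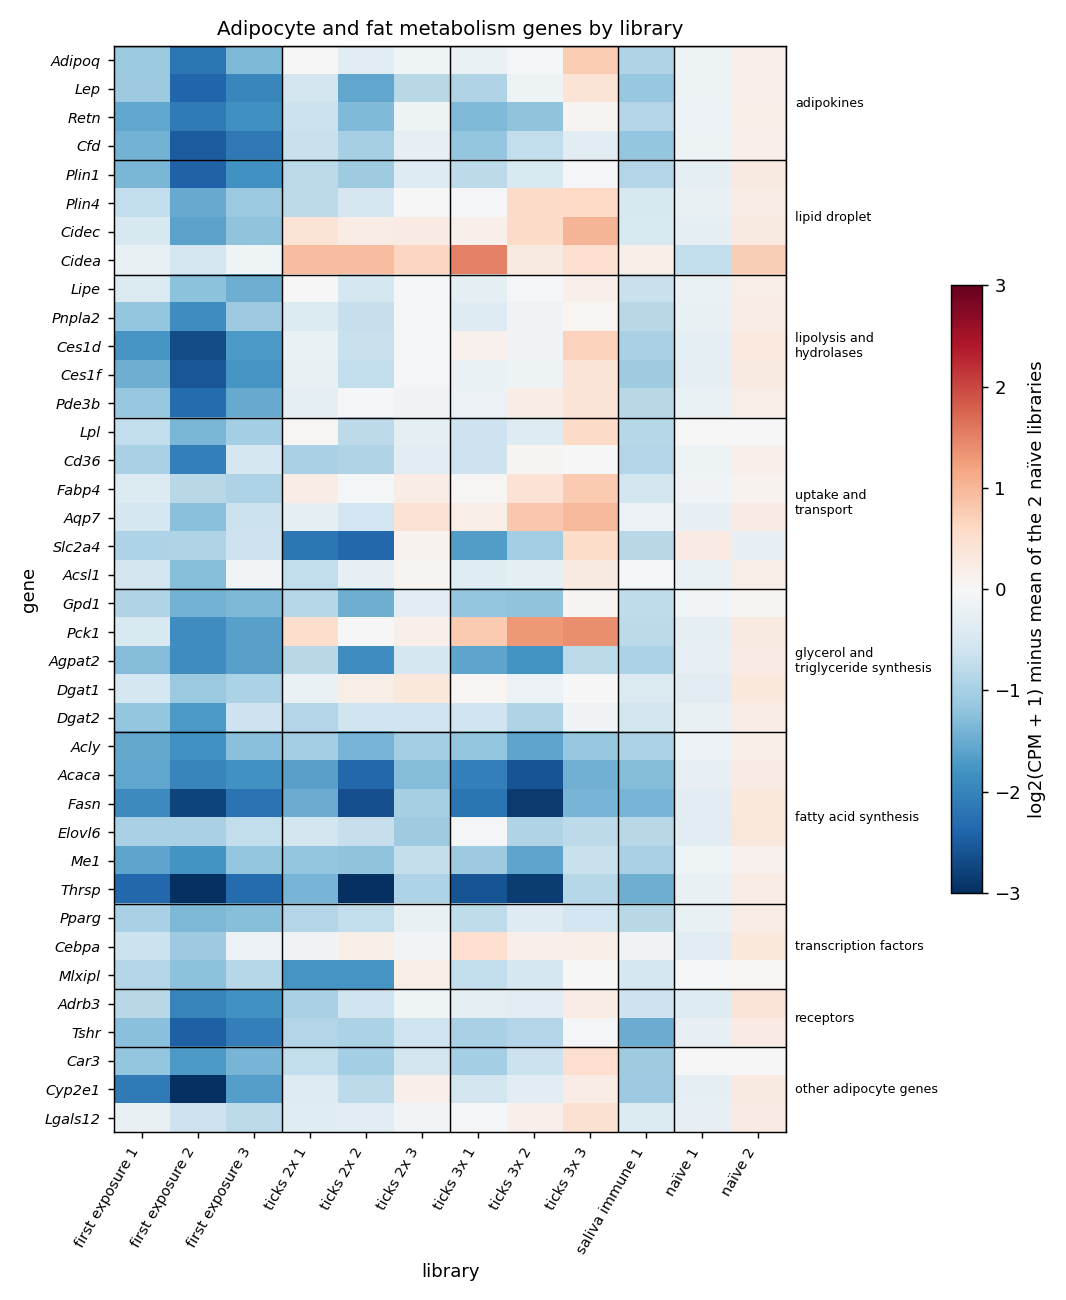
Colour map of the 38 genes (rows, by role) in the 12 libraries (columns, by group), as log2(CPM + 1) minus the mean of the 2 naïve libraries, with blue below and red above it. The first exposure columns are blue in nearly every row, and the fatty acid synthesis rows are blue in all tick groups.

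The hormones of fat, called adipokines, were low at first exposure. Adipoq was at 149, 72.3 and 126 CPM at first exposure, 325, 263 and 298 in ticks 2x, 282, 320.2 and 552 in ticks 3x, 172 in saliva immune skin and 293 and 362 in naïve skin. The first exposure libraries lay below all others for it, saliva immune skin came next, and ticks 2x and ticks 3x overlapped the naïve libraries. Cfd, which encodes adipsin, the complement factor D made by fat, was at 427, 201 and 256 CPM at first exposure, 715, 572 and 954 in ticks 2x, 506, 679 and 899.9 in ticks 3x, 507 in saliva immune skin and 1021 and 1267 in naïve skin. Every bitten library and the saliva immune library lay below both naïve libraries. The log2 fold change of Cfd against naïve was -2.02 ± 0.36 at first exposure (± SE, as for all fold changes, limma adjusted p = 0.0743), -0.64 ± 0.36 in ticks 2x and -0.75 ± 0.36 in ticks 3x. For Adipoq these values were -1.55 ± 0.34, -0.15 ± 0.34 and 0.18 ± 0.34. Lep, the satiety hormone leptin, averaged 16.4 ± 8.23 CPM at first exposure, 28.9 ± 9.77 in ticks 2x, 51.0 ± 22.3 in ticks 3x and 56.0 ± 7.95 in naïve skin (SD, n = 3, 3, 3 and 2, as for all such means). Retn, which encodes resistin, averaged 38.5 ± 7.68 CPM at first exposure, 88.9 ± 34.5 in ticks 2x, 86.9 ± 51.9 in ticks 3x and 139.9 ± 23.7 in naïve skin. All 4 hormones lay below both naïve libraries at first exposure, against 14% of all genes, and none was called by limma against naïve skin.

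Of the 4 lipid droplet genes, 3 lay below both naïve libraries at first exposure, against 14% of all genes. Cidec, which promotes the fusion of droplets into 1 large one, was at 174, 79.3 and 105 CPM at first exposure, 325, 286 and 294 in ticks 2x, 271, 368 and 502 in ticks 3x, 179.8 in saliva immune skin and 205 and 294 in naïve skin. Its first exposure libraries were the 3 lowest, and the repeated exposures reached above the naïve libraries. Plin4, a perilipin of the droplet coat, was at 208, 121 and 159 CPM at first exposure, 198, 242 and 342 in ticks 2x, 336, 518 and 522 in ticks 3x, 246 in saliva immune skin and 298 and 401 in naïve skin. First exposure and naïve did not overlap for it, and ticks 3x libraries 2 and 3 were the 2 highest of the 12. Plin1, the perilipin that guards the droplet against lipases, averaged 56.6 ± 20.2 CPM at first exposure, 122 ± 30.1 in ticks 2x, 153 ± 41.2 in ticks 3x and 205 ± 55.2 in naïve skin. Cidea, a relative of Cidec, averaged 5.83 ± 0.973 CPM at first exposure, 13.9 ± 1.57 in ticks 2x, 14.2 ± 7.35 in ticks 3x and 8.4 ± 6.19 in naïve skin. Its 2 naïve libraries lay on either side of first exposure, at 4.03 and 12.8 CPM. The median log2 fold change of the 4 droplet genes against naïve was -1.11 at first exposure, -0.08 in ticks 2x and 0.48 in ticks 3x.

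All 5 genes of lipases, esterases and their control lay below both naïve libraries at first exposure, against 14% of all genes. Pnpla2, the lipase that takes the first fatty acid from a triglyceride, was at 170.1, 103 and 177 CPM at first exposure, 285, 233 and 362 in ticks 2x, 289.7, 352 and 395 in ticks 3x, 212 in saliva immune skin and 324 and 444 in naïve skin. Lipe, the hormone-sensitive lipase of the next step, was at 150.0, 85.8 and 72.4 CPM at first exposure, 200.5, 139 and 197 in ticks 2x, 167, 197 and 224 in ticks 3x, 127 in saliva immune skin and 175 and 234 in naïve skin. For both genes the first exposure libraries lay below the naïve ones, while ticks 3x overlapped them. Ces1d, a carboxylesterase that hydrolyses triglyceride, was at 46.7, 24.2 and 48.0 CPM at first exposure, 140.0, 101 and 156 in ticks 2x, 176, 149 and 259 in ticks 3x, 81.0 in saliva immune skin and 130.4 and 197 in naïve skin. Ces1f, a carboxylesterase of the same gene cluster, was at 9.19, 3.73 and 7.25 CPM at first exposure, 22.9, 15.9 and 26.4 in ticks 2x, 23.3, 24.1 and 35.5 in ticks 3x, 12.4 in saliva immune skin and 22.1 and 33.0 in naïve skin. First exposure held the 3 lowest libraries for both esterases, and the saliva immune library came next. Pde3b, the phosphodiesterase through which insulin lowers cyclic AMP and lipolysis, was at 24.6, 10.2 and 18.5 CPM at first exposure, 45.6, 53.0 and 51.3 in ticks 2x, 48.1, 64.0 and 72.5 in ticks 3x, 30.4 in saliva immune skin and 47.4 and 63.6 in naïve skin. It too was lowest in the 3 first exposure libraries, and the repeated exposures lay around the naïve libraries. Against naïve skin the 5 genes had a median log2 fold change of -1.65 at first exposure, -0.30 in ticks 2x and 0.005 in ticks 3x, and none was called.

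Of the 6 genes of uptake and transport, 5 lay below both naïve libraries at first exposure, against 14% of all genes. Lpl, the lipoprotein lipase, was at 742, 481 and 609 CPM at first exposure, 1259, 714 and 1003 in ticks 2x, 802, 942 and 1843 in ticks 3x, 682 in saliva immune skin and 1245 and 1232 in naïve skin. Fabp4, the fatty acid binding protein of adipocytes, was at 773, 576 and 546 CPM at first exposure, 1207, 994 and 1203 in ticks 2x, 1055, 1390 and 1798 in ticks 3x, 703 in saliva immune skin and 964 and 1111 in naïve skin. First exposure lay below both naïve libraries for Lpl and Fabp4, and ticks 3x library 3 was the highest of the 12 for both. Cd36, a fatty acid transporter, averaged 29.0 ± 14.4 CPM at first exposure, 37.0 ± 10.2 in ticks 2x, 54.9 ± 13.7 in ticks 3x and 61.2 ± 9.86 in naïve skin. Aqp7, the channel through which glycerol leaves the adipocyte, averaged 8.85 ± 2.49 CPM at first exposure, 14.9 ± 6.00 in ticks 2x, 26.4 ± 7.02 in ticks 3x and 16.1 ± 4.27 in naïve skin. Acsl1, which activates fatty acids with coenzyme A, averaged 308 ± 121 CPM at first exposure, 380.0 ± 105 in ticks 2x, 423 ± 110.0 in ticks 3x and 459 ± 86.5 in naïve skin, and its groups overlapped. Slc2a4, the insulin-regulated glucose transporter GLUT4, is shared with muscle. It was at 25.6, 22.2 and 126 CPM in ticks 2x, and the 2 low libraries of that group were also the lowest in skeletal muscle genes. In naïve skin it was at 140.0 and 99.5 CPM.

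The next 5 members are enzymes that supply glycerol 3-phosphate or build triglyceride. Pck1, whose enzyme supplies glycerol 3-phosphate from pyruvate in fat, was at 119, 44.2 and 52.1 CPM at first exposure, 237, 166 and 183 in ticks 2x, 285, 408 and 430.1 in ticks 3x, 94.96 in saliva immune skin and 136 and 198 in naïve skin. Its 3 values in ticks 3x were the highest of the 12 libraries. Dgat2, which adds the last fatty acid to make triglyceride, was at 162, 108 and 236 CPM at first exposure, 197, 240.4 and 239.5 in ticks 2x, 239.7, 192 and 337 in ticks 3x, 248 in saliva immune skin and 308 and 424 in naïve skin. Gpd1, which makes glycerol 3-phosphate from glucose carbon, was at 181, 126 and 132 CPM at first exposure, 187, 122 and 265 in ticks 2x, 152, 147 and 356 in ticks 3x, 199 in saliva immune skin and 319 and 359.7 in naïve skin. For Dgat2 and Gpd1, first exposure and ticks 2x lay below both naïve libraries. Agpat2, an acyltransferase of the second acylation step, averaged 40.3 ± 8.03 CPM at first exposure, 61.9 ± 26.5 in ticks 2x, 48.0 ± 18.5 in ticks 3x and 125 ± 30.2 in naïve skin. All 9 bitten libraries lay below both naïve libraries for Agpat2, with a log2 fold change of -1.36 ± 0.35 (limma adjusted p = 0.247). Dgat1, the second enzyme of the last step, averaged 27.1 ± 6.22 CPM at first exposure, 53.9 ± 9.87 in ticks 2x, 48.2 ± 4.00 in ticks 3x and 50.7 ± 15.8 in naïve skin.

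Fatty acid synthesis genes lay below both naïve libraries in all 3 tick groups, apart from Elovl6 in ticks 3x. Fasn, the fatty acid synthase, was at 845, 458 and 681 CPM at first exposure, 1126, 508 and 1591 in ticks 2x, 696, 429.7 and 1197 in ticks 3x, 1207 in saliva immune skin and 2522 and 3955 in naïve skin. Acly, which makes the acetyl-CoA for this pathway from citrate, was at 259, 213 and 314 CPM at first exposure, 366, 286 and 372 in ticks 2x, 328, 251 and 338 in ticks 3x, 391 in saliva immune skin and 661 and 851 in naïve skin. For both genes every bitten library and the saliva immune library lay below both naïve libraries. Acaca, the carboxylase that commits acetyl-CoA to fatty acids, averaged 189 ± 28.6 CPM at first exposure, 199 ± 68.2 in ticks 2x, 166 ± 67.0 in ticks 3x and 657 ± 152 in naïve skin. Me1, the malic enzyme that supplies NADPH, averaged 215 ± 50.3 CPM at first exposure, 300.1 ± 59.9 in ticks 2x, 289 ± 89.5 in ticks 3x and 608 ± 80.0 in naïve skin. Thrsp had the widest span of all 38 members, with a highest library 11.6 times the lowest, and Elovl6, which lengthens the fatty acids that Fasn makes, had the narrowest of these 6. Thrsp averaged 54.7 ± 17.7 CPM at first exposure, 110.4 ± 71.2 in ticks 2x, 93.8 ± 76.8 in ticks 3x and 333 ± 70.1 in naïve skin, and Elovl6 averaged 179.5 ± 17.6, 198 ± 34.9, 230.0 ± 77.9 and 343 ± 115 CPM in the same groups. Naïve library 2 was the highest of the 12 for all 6 genes.

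Against naïve skin, the 6 genes had a negative fold change in each of the 3 tick groups. Their median log2 fold change was -1.66 at first exposure, -1.42 in ticks 2x and -1.67 in ticks 3x. All 6 lay below both naïve libraries at first exposure and in ticks 2x, and 5 of 6 did in ticks 3x, where Elovl6 overlapped. Of all genes, 14%, 12.8% and 9.58% lay below both in these groups. Fasn had -2.30 ± 0.55 at first exposure, -1.70 ± 0.55 in ticks 2x, -2.15 ± 0.55 in ticks 3x and -2.05 ± 0.47 over the 9 bitten libraries (limma adjusted p = 0.23). Acly had -1.53 ± 0.22, -1.14 ± 0.22, -1.31 ± 0.22 and -1.33 ± 0.19 in the same order (limma adjusted p = 0.0566, 0.209, 0.289 and 0.0796). None of the 6 was called. The unadjusted limma p was below 0.05 for all 6 at first exposure and in ticks 2x, and for 5 in ticks 3x. By that measure 6.32%, 5.23% and 2.12% of all genes were lower. Without first exposure library 3, Acly passed at first exposure (log2 fold change -1.67), the value being -1.53 with it. Ticks 2x and ticks 3x pooled gave a median log2 fold change of 0.34 against first exposure over the 6 genes, and none of them had an unadjusted limma p below 0.05 in that comparison.

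**Figure D2:**
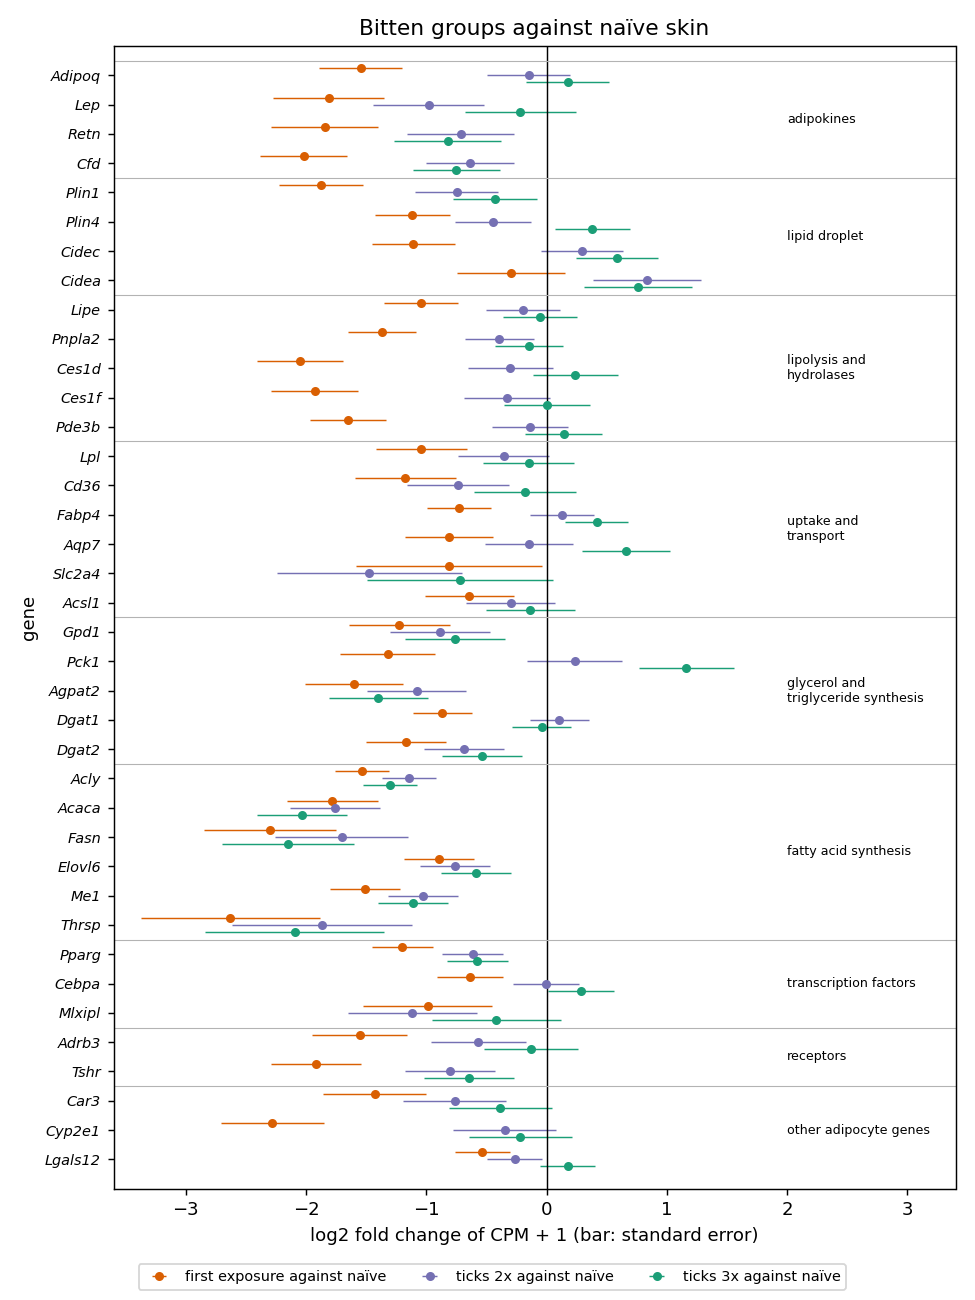
Log2 fold change of CPM + 1 (x axis) of each of the 38 genes (y axis, by role) for first exposure, ticks 2x and ticks 3x against the 2 naïve libraries, with standard errors from limma. Points of first exposure lie left of 0 for all 38 genes, and for the fatty acid synthesis genes the 3 colours lie together between -0.59 and -2.63.

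Among the transcription factors, Cebpa, a C/EBP factor of adipocyte identity, was at 186, 138 and 259 CPM at first exposure, 272, 333 and 276 in ticks 2x, 419, 327 and 336 in ticks 3x, 274 in saliva immune skin and 237 and 363 in naïve skin. Its first exposure libraries overlapped the naïve ones. Mlxipl, the glucose-responsive factor ChREBP that drives fat synthesis genes, was at 4.33, 3.18 and 4.36 CPM at first exposure, 1.87, 1.85 and 10.2 in ticks 2x, 4.82, 5.89 and 8.77 in ticks 3x, 5.77 in saliva immune skin and 8.36 and 9.19 in naïve skin. Its 2 lowest libraries, ticks 2x libraries 1 and 2, were also lowest in skeletal muscle genes. Pparg, the master regulator of adipocyte formation, averaged 2.92 ± 0.569 CPM at first exposure, 4.95 ± 1.49 in ticks 2x, 5.04 ± 0.757 in ticks 3x and 8.06 ± 2.04 in naïve skin. Against naïve skin its log2 fold change was -1.20 ± 0.25 at first exposure (limma adjusted p = 0.0921).

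Both receptors were low at first exposure. Adrb3, the beta-3 adrenergic receptor that starts lipolysis in mouse fat, was at 43.8, 19 and 21.7 CPM at first exposure, 39.7, 52.3 and 71.9 in ticks 2x, 64.1, 63.9 and 92.0 in ticks 3x, 51.4 in saliva immune skin and 59.8 and 105 in naïve skin. Tshr, the thyrotropin receptor, which mouse adipocytes also carry, was at 14.7, 5.85 and 8.07 CPM at first exposure, 19.4, 18.5 and 23.96 in ticks 2x, 18.0, 19.3 and 34.7 in ticks 3x, 12.3 in saliva immune skin and 30.6 and 43.5 in naïve skin. For Adrb3 the repeated exposures overlapped the naïve libraries, and for Tshr ticks 2x lay below them and ticks 3x did not. Of the remaining members, Car3, a carbonic anhydrase abundant in fat and in slow muscle, was at 1572, 1070 and 1333 CPM at first exposure, 2100, 1751 and 2422 in ticks 2x, 1727, 2266 and 5019 in ticks 3x, 1695 in saliva immune skin and 3575 and 3471 in naïve skin. First exposure held the 3 lowest values of Car3, and ticks 3x library 3, which also had the highest skeletal muscle mean, the highest. Cyp2e1, a cytochrome P450 of fat and liver, was at 77.5, 40.1 and 108 CPM at first exposure, 261, 196 and 377 in ticks 2x, 232, 272 and 400.4 in ticks 3x, 161 in saliva immune skin and 283 and 411 in naïve skin. It too was lowest in the 3 first exposure libraries, with a log2 fold change of -2.28 ± 0.43 against naïve skin (limma adjusted p = 0.0787). Lgals12, a galectin of adipocyte lipid droplets, varied least of the 38 (highest library 2.37 times the lowest) and averaged 36.8 ± 7.78 CPM at first exposure, 44.1 ± 5.36 in ticks 2x, 60.6 ± 11.0 in ticks 3x and 53.8 ± 13.5 in naïve skin.

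**Figure D3:**
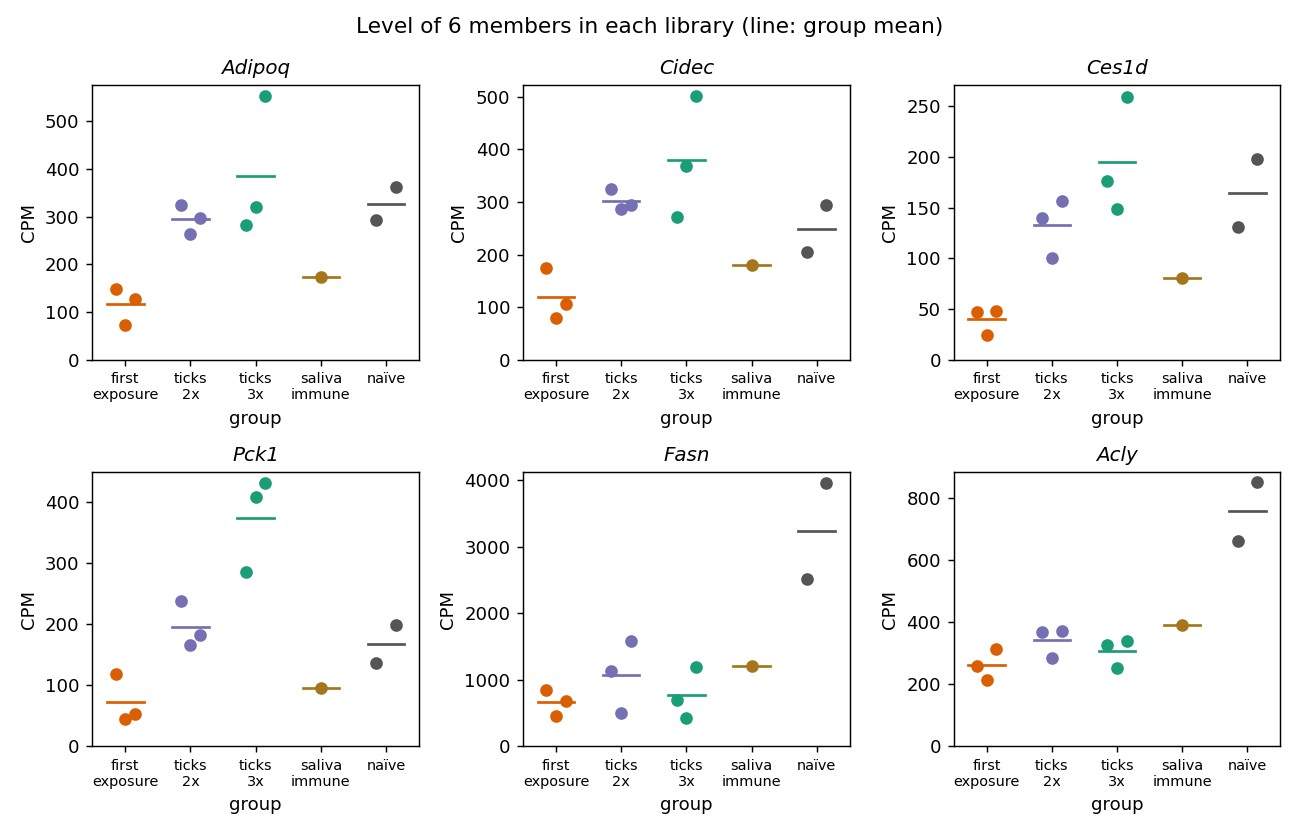
CPM of Adipoq, Cidec, Ces1d, Pck1, Fasn and Acly in each library by group (points), with a line at the group mean and axes from 0. Adipoq, Cidec and Ces1d are lowest in the 3 first exposure libraries, while Fasn and Acly are highest in the 2 naïve libraries, at 2522 and 3955 CPM for Fasn.

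Repeated exposure, meaning ticks 2x and ticks 3x pooled (n = 6), had higher levels of adipocyte genes than first exposure (n = 3). The median log2 fold change of the 38 was 0.91, with 36 above 0, against -0.06 over all genes tested, of which 43.2% were above 0. Limma called 7 members, all higher under repeated exposure, against 0.246% of all genes called higher. They were the hormone gene Adipoq, the droplet gene Cidec, the esterase genes Ces1d and Ces1f, Pde3b, Pck1 and Cyp2e1. For 18 members all 6 repeated exposure libraries lay above all 3 first exposure libraries, against 3.07% of all genes, and no member showed the opposite, where 5.17% of all genes did. An unadjusted limma p below 0.05 was found for 26 members, all higher, against 9.36% of all genes in that direction.

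Of the called genes, Ces1d averaged 164 ± 53.1 CPM under repeated exposure, against 39.7 ± 13.4 at first exposure (log2 fold change 2.02 ± 0.30, limma adjusted p = 0.0262). Its neighbour Ces1f averaged 24.7 ± 6.35 CPM, against 6.72 ± 2.77 (1.77 ± 0.28, limma adjusted p = 0.0335). Ces1d spans bases 93166072 to 93197804 of chromosome 8 and Ces1f bases 93256236 to 93279766, in RefSeq's GRCm38.p6. These genes are members of a family of paralogs between which reads may have been split. Pck1 (chromosome 2, 173153073 to 173159274) averaged 285 ± 112 CPM under repeated exposure, against 71.8 ± 41.0 at first exposure (2.02 ± 0.38, limma adjusted p = 0.0479). Cyp2e1 (chromosome 7, 140763819 to 140774990) averaged 289.5 ± 81.4 CPM, against 75.1 ± 33.8 (2.00 ± 0.32, limma adjusted p = 0.0335). Pde3b (chromosome 7, 114415222 to 114537938) averaged 55.8 ± 10.4 CPM, against 17.8 ± 7.22 (1.66 ± 0.25, limma adjusted p = 0.0262). Adipoq (chromosome 16, 23146536 to 23157968) averaged 339.9 ± 107 CPM, against 116 ± 39.4 (1.56 ± 0.27, limma adjusted p = 0.0351). Cidec (chromosome 6, 113424634 to 113435760) averaged 341 ± 86.0 CPM, against 119.6 ± 49.0 (1.55 ± 0.26, limma adjusted p = 0.0351). For all 7 genes the 6 repeated exposure libraries lay above the 3 first exposure libraries.

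The 7 calls depended on single libraries. No member was called without first exposure library 2, without ticks 2x library 3, without ticks 3x library 1 or without ticks 3x library 2. Without ticks 2x library 2 there were 3 calls, without ticks 2x library 1 there were 4, and without first exposure library 3 there were 14. Over the omissions of single libraries, the calls among all genes tested ranged from 0 to 2260, against 140 with every library. The size of the differences moved less, with Ces1d between 1.71 and 2.19 and Adipoq between 1.26 and 1.77 on the log2 scale over these omissions. With a filter of 5 CPM in place of 1 CPM limma called 0 members, and 7 of all genes, against 7 members and 140 of all genes. Pck1 was also lost with a pseudocount of 0.5 or 0.1. The log2 fold change of skeletal muscle genes was below 0 under repeated exposure for 15 of 15 genes, where 56.8% of all genes were below 0. Even so, Ryr1 had a mean of 52.9 CPM under repeated exposure and 51.2 CPM at first exposure. The summed levels that follow are those of the skeletal muscle genes. Their summed levels were 2875 to 34550 CPM in ticks 2x and 6417 to 51410 CPM in ticks 3x, against 17430 to 24900 CPM at first exposure, and none was called by limma. Hair follicle genes had a log2 fold change below 0 for 17 of 17, with sums of 13.0 to 26860 CPM in ticks 2x and 16.3 to 5466 CPM in ticks 3x, against 59.5 to 33920 CPM at first exposure, and none was called. Endothelial genes had a log2 fold change above 0 for 7 of 8, with a median of 0.91, as for the 38 members, and none was called. Their sums were 122 to 441 CPM in ticks 2x and 245 to 431 CPM in ticks 3x, against 102 to 224 CPM at first exposure. With the muscle mean as a covariate limma called 19 members and 541 of all genes. With the hair follicle mean it called 4 members and 49 of all genes.

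Taken apart, 36 of 38 members lay above first exposure in ticks 2x (median log2 fold change 0.72) and 37 in ticks 3x (median 1.01), where all genes had medians of -0.08 and -0.04. The groups did not overlap for 18 members in ticks 2x, all higher, against 6.9% of all genes, and for 26 in ticks 3x, all higher, against 9.06%. Limma called 0 members and 0% of all genes in both, with an unadjusted limma p below 0.05 for 20 members in ticks 2x, all higher (6.49% of all genes higher and 9.39% lower), and for 26 in ticks 3x, all higher (8.2% higher and 9.58% lower). Without first exposure library 3 there were 1 call in ticks 2x and 13 in ticks 3x, and without first exposure library 1 there was 1 in ticks 3x. Over the omissions of single libraries, calls among all genes reached 137 in ticks 2x and 1372 in ticks 3x. Both comparisons use the same first exposure libraries. The member with the lowest fold change in ticks 2x was Slc2a4 (-0.66 ± 0.69), and in ticks 3x it was Acaca (-0.25 ± 0.34).

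Between ticks 3x and ticks 2x, both of title series 6, 28 of 38 members had a positive log2 fold change, with a median of 0.23 against 0.03 over all genes. Limma called 0 members and 0% of all genes, and 3 members had an unadjusted limma p below 0.05, all higher, against 3.56% of all genes. That count was 0 without ticks 3x library 2 or 3, 1 without ticks 2x library 1, and 5 without ticks 2x library 3 or ticks 3x library 1. Pck1 and Lgals12 had all 3 ticks 3x libraries above all 3 ticks 2x libraries, as 7.3% of all genes did. Pck1 averaged 374 ± 77.9 CPM in ticks 3x and 195 ± 37.1 CPM in ticks 2x (log2 fold change 0.93 ± 0.35, limma adjusted p = 0.894), and Plin4 averaged 459 ± 106 and 260.4 ± 73.8 CPM (0.82 ± 0.28, limma adjusted p = 0.894). Fatty acid synthesis was the role in which 5 of 6 genes lay lower in ticks 3x, with a median log2 fold change of -0.19.

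The title series was followed through the only other library of series 4, the saliva immune one. It lay above all 3 first exposure libraries for 28 members, within their range for 10 and below them for 0. Of the 13614 genes with at least 1 CPM in all libraries, 25% lay above, 51.2% within and 23.8% below that range. It lay below both naïve libraries for 34 members, against 31.2% of those genes, and below all 6 repeated exposure libraries for 16, against 8.28%. For 12 members, Adipoq, Cidec, Pnpla2, Ces1d, Ces1f, Pde3b, Fabp4, Pck1, Dgat1, Tshr, Car3 and Cyp2e1, all 4 libraries of series 4 were below all 8 of series 6, a pattern that 1.25% of those genes had. All 7 genes called under repeated exposure are among these 12. The calls and this pattern use the same first exposure and repeated exposure libraries, so this overlap adds no separate support. The part of the title series in these differences was not tested. Fasn, at 1207 CPM in saliva immune skin, lay between first exposure and naïve, and within the ticks 2x range.

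Single libraries set much of the spread. The mean log2(CPM + 1) over the 38 genes was 6.42, 5.70 and 6.20 at first exposure, 6.88, 6.60 and 7.24 in ticks 2x, 6.90, 6.97 and 7.56 in ticks 3x, 6.70 in saliva immune skin and 7.27 and 7.70 in naïve skin. First exposure library 2 was the lowest of the 12 for 26 members, as it was for 22.1% of the 13614 genes. Naïve library 2 was the highest for 19 members, against 7.51% of those genes, and ticks 3x library 3 for 15, against 6.12%. Naïve library 2 held the highest value of all 6 fatty acid synthesis genes, while ticks 3x library 3 held that of Adipoq, Cidec, Ces1d, Pck1, Fabp4 and Lpl among others.

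The genes were also set against each other within libraries. The ratio of Fasn to Adipoq CPM, which is not corrected for gene length, was 5.68, 6.34 and 5.39 at first exposure, 3.47, 1.93 and 5.34 in ticks 2x, 2.47, 1.34 and 2.17 in ticks 3x, 7.00 in saliva immune skin and 8.62 and 10.9 in naïve skin. All 6 repeated exposure libraries lay below the first exposure libraries, and these below the naïve ones. The ratio of Acaca to Adipoq was 1.48, 2.27 and 1.45 at first exposure, 0.644, 0.48 and 0.878 in ticks 2x, 0.55, 0.331 and 0.432 in ticks 3x, 1.53 in saliva immune skin and 1.88 and 2.11 in naïve skin. For it first exposure overlapped naïve skin, and repeated exposure lay below both. The ratio of Pck1 to Adipoq was 0.799, 0.612 and 0.413 at first exposure, 0.73, 0.634 and 0.613 in ticks 2x, 1.01, 1.27 and 0.779 in ticks 3x, 0.551 in saliva immune skin and 0.466 and 0.546 in naïve skin. The 6 repeated exposure libraries lay above both naïve libraries, and first exposure overlapped both groups. Of 3 further ratios, that of Thrsp to Adipoq was 0.385, 0.125 and 0.581 in ticks 2x and 0.193, 0.14 and 0.33 in ticks 3x, against 0.43, 0.473 and 0.52 at first exposure and 0.97 and 1.06 in naïve skin, so that ticks 2x library 3 lay above first exposure. The ratio of Cidec to Adipoq was 0.908 to 1.15 under repeated exposure, against 0.833 to 1.17 at first exposure and 0.699 and 0.812 in naïve skin. That of Fasn to Pck1 was 1.05 to 8.72 under repeated exposure, against 7.1 to 13.1 at first exposure and 18.5 and 20.0 in naïve skin. These 6 ratios were chosen after the values were seen and were given no test. Sebaceous glands also express fatty acid synthesis genes, and the part of any cell type in the ratios was not tested.

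**Figure D4:**
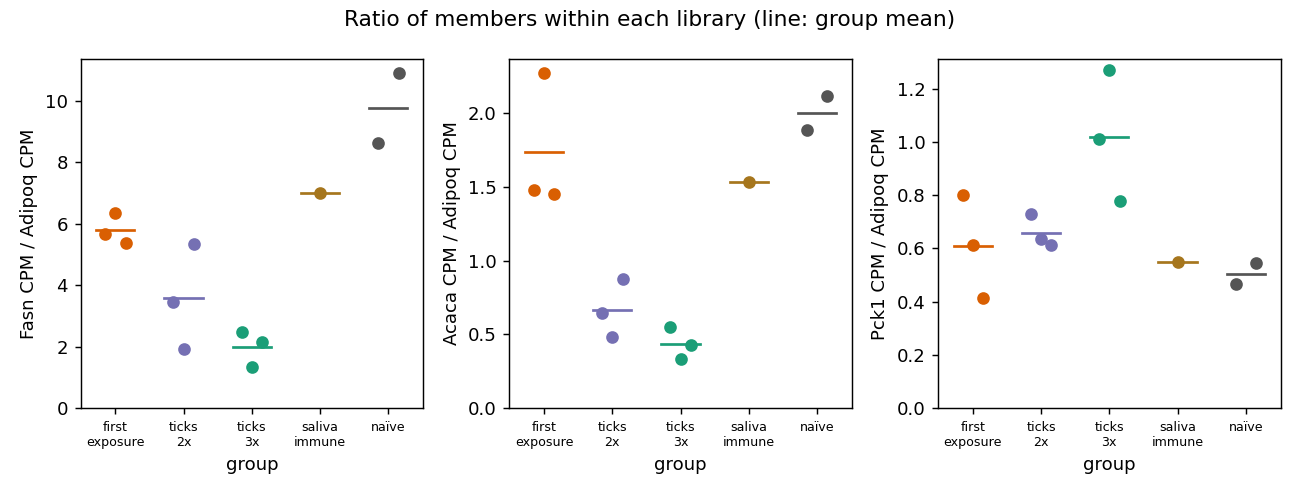
Ratio of Fasn, Acaca and Pck1 CPM to Adipoq CPM in each library by group (points), with a line at the group mean and axes from 0. The Fasn ratio is 8.62 and 10.9 in naïve skin and at most 5.34 under repeated exposure, and the Pck1 ratio reaches 1.27 in ticks 3x.

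A wider list of 43 other fat genes, of which 40 were tested, showed a similar order. Their median log2 fold change against naïve skin was -0.65 at first exposure, -0.35 in ticks 2x and -0.11 in ticks 3x. Limma called none of them against naïve skin, and 23, 8 and 9 were lower at an unadjusted limma p below 0.05 in these groups, with 0, 2 and 2 higher. Of all genes, 6.32%, 5.23% and 2.12% were lower by that measure and 10.1%, 5.71% and 4.83% higher. Scd1, which makes monounsaturated fatty acids, was at 1993, 889 and 2171 CPM at first exposure, 2703, 1487 and 4262 CPM in ticks 2x, 2639, 1605 and 4681 CPM in ticks 3x, 2829 CPM in saliva immune skin and 6656 and 10160 CPM in naïve skin. As for Fasn, no bitten library reached the naïve libraries. Not all of the list followed this. At first exposure 37 of the 40 had a negative log2 fold change against naïve skin and 3 a positive one. Scd2 was at 506.5 and 537 CPM in first exposure libraries 1 and 2, above the 440.6 and 412.3 CPM of naïve skin. Angptl4 averaged 82.2 ± 8.64 CPM at first exposure, 116.5 ± 27.4 in ticks 2x and 132.8 ± 25.5 in ticks 3x, against 58.65 ± 11.3 in naïve skin. Between repeated and first exposure 2 of the 40 were called, both higher, against 0.246% of all genes. Mgll, the lipase of the last step of triglyceride breakdown, averaged 362 ± 34.6 CPM under repeated exposure, against 216 ± 21.5 CPM at first exposure (log2 fold change 0.74 ± 0.14, limma adjusted p = 0.0479). Ffar4, a receptor of long-chain fatty acids, averaged 2.17 ± 0.537 CPM, against 0.595 ± 0.228 CPM (0.98 ± 0.18, limma adjusted p = 0.0465). Of 13 genes of fatty acid oxidation none was called against naïve skin, and their median log2 fold change was -0.20 at first exposure, -0.0022 in ticks 2x and -0.0078 in ticks 3x. At an unadjusted limma p below 0.05, 2 of them were lower at first exposure, 1 was lower in ticks 2x, and in ticks 3x 1 was lower and 1 higher.

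Markers of other cell types were measured beside these genes, and are counted as higher or lower by the sign of their log2 fold change. By that sign, 42.1% of all genes were lower at first exposure than in naïve skin. Under repeated exposure 43.2% of all genes were higher than at first exposure. Endothelial genes, of the vessels that run through fat, lay lower at first exposure than in naïve skin for 8 of 8, none of them called, with summed levels of 102 to 224 CPM at first exposure and 283 to 356 CPM in naïve skin. In ticks 3x, 8 of 8 lay higher than at first exposure, 7 of them without overlap. Of all genes, 46.2% lay higher there, and 9.06% did so without overlap. Of 11 genes of adipose progenitors and fibroblasts 10 lay lower at first exposure, and their sums were 2271 to 7248 CPM at first exposure and 5539 to 5775 CPM in naïve skin. Under repeated exposure 9 of the 11 lay higher than at first exposure (median 0.33 on the log2 scale), and 1 was called. That gene, Dpp4, a progenitor marker, averaged 64.2 ± 13.7 CPM under repeated exposure, against 132 ± 25.3 CPM at first exposure (log2 fold change -1.04 ± 0.19, limma adjusted p = 0.0465). Of 10 sebocyte genes 8 lay higher under repeated than at first exposure. Krt79, a keratin of sebaceous ducts, averaged 269.6 ± 64.1 CPM under repeated exposure, against 107 ± 29.8 CPM at first exposure (1.33 ± 0.22, limma adjusted p = 0.0335). It was the only sebocyte gene called. Summed sebocyte levels were 656 to 830.2 CPM in ticks 2x and 594 to 1136 CPM in ticks 3x, against 377 to 421 CPM at first exposure, and 405 to 694 CPM in naïve skin. Macrophage genes lay higher under repeated than at first exposure for 8 of 8, with sums of 1461 to 2700 CPM in ticks 2x and 881 to 2567 CPM in ticks 3x, against 507 to 1825 CPM, and none was called. The part of these cell types in the levels of the fat genes was not tested.

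Sequence shared with other genes limits some values. Transcripts of Acaca, Elovl6 and Me1 match copies elsewhere in the genome over at least 200 bases at 95% identity or more. For Acaca this is Gm5182, with 6118 bases at 99.2% and at most 1.6 CPM in any library. Acsl1, Adrb3, Gpd1, Lipe and Mlxipl overlap transcripts on the opposite strand, and no source used here says whether the counting used strand. For Lipe the overlapping 4732471J01Rik had at most 2.87 CPM.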

How the data were processed

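Total RNA of skin was sequenced in 12 libraries. Per the submitters' processing notes, STAR, Partek 8.0.19 and GRCm38.p6 were used, and no source used here gives the annotation, the counting program or the strandedness. The authors deposited CPM for 25070 genes, with 0.0001 added to each value. Depth was estimated from the CPM of 1 read, on whose multiples 73.4% to 79.3% of values of 0.01 to 3 CPM fell within 0.02 reads. This gave 12.5 to 29.8 M (mega) reads, and the level of 3 reads covers counting error only. As not all values came out whole, no count test was run.

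Comparisons were made on log2(CPM + 1) by limma 3.58.1 (R 4.3.3) with a variance trend. A gene entered if 2 or more of 11 libraries reached 1 CPM, which left 17064 genes, all 38 members among them. Genes were called at a Benjamini-Hochberg adjusted p below 0.05. Fold changes are on that scale, which understates changes of low genes. A fit of 4 groups left 7 residual degrees of freedom. Pooled repeated exposure used a fit of 3 groups, with 8. The saliva immune library, alone in its group, entered no fit. No 2 libraries held identical values.

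Members, their grouping by role and the other gene lists were chosen with earlier results of these data known. Values of every library are given for the 2 members of each role with the highest mean, each called member and the member of smallest p in each comparison. Coordinates and promoters came from RefSeq's GRCm38.p6, and near copies from GENCODE M21 transcripts. Scripts were tested on simulated data. Alternatives were other pseudocounts, filters, scaling and group choices, single libraries left out, and, added after seeing the data, muscle or hair follicle means as covariates and a block by title number.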

Additional observations from a re-analysis of the deposited data

Results flagged for a closer look

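In 44 tests of single genes within a group, 5 found a library far from the rest by Dixon's test at the 95% level, which chance alone flags in about 1 of 20 groups. They concern 4 values, all of ticks 3x library 3, since that of Car3 was tested in 2 overlapping sets of libraries. In the 6 repeated exposure libraries, it had 552 CPM of Adipoq, where the next highest library had 325 CPM. It had 337 CPM of Dgat2, where the next had 240.4 CPM, and 34.7 CPM of Tshr, where the next had 23.96 CPM. For Car3 it had 5019 CPM, where the next had 2422 CPM, both among the 6 repeated exposure libraries and among the 9 bitten libraries. The same library had the highest skeletal muscle mean of the 12, 10.93 on the log2(CPM + 1) scale, and its part in these values was not tested. Without it limma called 6 members higher under repeated than at first exposure, against 7 with it.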

How the results depend on the processing

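No named gene reversed direction under any alternative, in the comparisons in which it was checked. The member medians kept their sign when single libraries were left out. Under the other alternatives the medians were checked for the size of the shift, not for sign. Between repeated and first exposure, limma called 7 members, 6 with a pseudocount of 0.5 or 0.1, 7 with median-of-ratios scaling, 5 with only the groups compared, 11 without a filter, 0 with a filter of 5 CPM, 4 with the hair follicle mean as covariate and 19 with the muscle mean. Leaving out each library gave 0 to 14. The same omissions gave 0 to 10 called members for first exposure against naïve, 0 to 1 for ticks 2x against first exposure and 0 to 13 for ticks 3x against first exposure, all 0 with every library. The other comparisons had 0 called under every alternative. Only 1 median moved beyond the spread between replicates, that of ticks 2x against naïve, to -0.15 with the muscle mean as covariate, against -0.59. The cause of these shifts was not tested.

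Leaving out each library kept the member medians within -1.51 to -1.13 for first exposure against naïve, -0.77 to -0.37 for ticks 2x and -0.47 to -0.04 for ticks 3x against naïve, and 0.80 to 1.10 for repeated against first exposure. Among all genes tested, 140 were called between repeated and first exposure, against 50 with a pseudocount of 0.1, 259 without a filter, 7 with a filter of 5 CPM, 81 with only the groups compared, 49 with the hair follicle covariate, 541 with the muscle covariate and 0 to 2260 with single libraries left out. Against naïve skin, 2 were called at first exposure (2 to 26 under other settings, 0 to 600 with a library left out), 6 in ticks 2x (0 to 11, and 0 to 5), 1 in ticks 3x (0 to 5, and 0 to 1) and 7 in bitten skin (0 to 9, and 0 to 8). With a library left out, 0 to 137 were called in ticks 2x and 0 to 1372 in ticks 3x against first exposure, and 0 with every library. The titles of ticks 2x and first exposure share the numbers 1, 3 and 5, with nothing to say that a number marks a shared animal, batch or day. The deviations of same-numbered libraries from their group means correlated at 0.769, -0.535 and 0.583 across 17064 genes. Those of differently numbered libraries correlated at -0.826 to 0.765, so the numbers were not taken as pairs. With the title number as a replicate block, added after seeing the data, limma called 0 members, as without it. That fit left 2 residual degrees of freedom. Each number has 1 library in each group, so the block could not change the median of 0.72. No other fitted groups share title numbers. A fit without one naïve library leaves 1, whose spread is assumed to be like that of the other groups. The 2 naïve libraries limit every comparison with unbitten skin, and no naïve library is in title series 4.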
